A study of Mus musculus with 62 samples.

Results

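RNA-seq of the heart compared mRNA levels between mice lacking *Rpl3l* and WT mice, with 4 hearts per genotype, which make up 8 of the 62 samples of the study. The 8 libraries were selected by their labels (WT or *Rpl3l* KO, heart, RNA-seq), and no measured value entered that choice. The study asked what RPL3L, a ribosomal protein paralog of striated muscle, does in the heart, and the RNA-seq libraries served there as the mRNA reference for ribosome profiling. All mice were C57BL/6J males of 10 weeks, 4 of them WT (*Rpl3l*+/+) and 4 *Rpl3l* KO (*Rpl3l*-/-), and the knockout allele, made in zygotes with Cas9, lacks exon 2 of *Rpl3l* in every cell of the animal, so that effects within the heart and effects from elsewhere in the body cannot be told apart. Poly(A) RNA was selected from lysates of heart tissue, a mixture of all cell types of the organ. The hearts are named here WT1 to WT4 and KO1 to KO4 after the replicate numbers in the labels.

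RPL3 is a core protein of the large ribosomal subunit that lies close to the peptidyl transferase center. Heart and skeletal muscle also express its paralog RPL3L, which takes the place of RPL3 in a share of the ribosomes of muscle cells. Loss of a ribosomal protein can be met at the mRNA level by stress programs or by ribosome biogenesis genes. It can also be met by the fetal gene program of a failing heart. Classes of genes were chosen, with earlier results of these data known, to cover these as well as contractile, metabolic and cell type-specific mRNAs of the heart.

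The total counts per library were 3594696, 4416516, 5162755 and 14041366 in WT1 to WT4 and 13469954, 17325970, 22425296 and 10930435 in KO1 to KO4, so that 3 of the 4 WT libraries were shallower than every *Rpl3l*-/- library. Each gene was represented by the transcript with most counts, which gave 10476 genes, of which 6303 with a mean count of at least 10 were tested. All transcripts that could be placed in the annotation lie on the plus strand, so that *Rpl3*, on the minus strand, is not analysed here. Each gene class likewise covers only members on the plus strand, such as 17 of 40 genes listed for calcium cycling and 26 of 58 for fatty acid use. Levels are given as CPM, the count of a gene scaled to a common library total, adjusted between libraries by the trimmed mean of M values (TMM), and fold changes are on the log2 scale, *Rpl3l*-/- minus WT, with their SE.

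The mutation was made with a pair of CRISPR RNAs, printed here because they define the knockout. Neither matches the 1375-nt *Rpl3l* transcript, which has 10 exons on the plus strand of chromosome 17 (chr17:24727820-24736143, GRCm38), and their genomic positions are not analysed here. The antisense primer of the RT-qPCR assay for the deleted region matches the transcript in exon 2 (chr17:24728317-24728509, 193 nt, or 14.04% of the transcript), at chr17:24728395-24728413, and was included to place the lost sequence. The length of exon 2 leaves a remainder of 1 when divided by 3, so that its loss shifts the reading frame. All sequences are written 5′ to 3′ in lower case, with no base marked by capitals.
Rpl3l KO crRNA 1: ttgctccaagagcatagccc
Rpl3l KO crRNA 2: actacctacggccagtgcca
deleted region reverse primer: gaggccagctcttcacctt

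*Rpl3l* mRNA fell in the knockout hearts to a small remainder of its WT level. Its level was 1016, 1325, 924 and 1263 CPM in WT1 to WT4 and 60.2, 99.6, 69.9 and 68 CPM in KO1 to KO4. Every *Rpl3l*-/- heart lay far below every WT heart, and the spread within each genotype was small (1.43-fold between the highest and the lowest WT heart and 1.66-fold between the *Rpl3l*-/- hearts). The log2 fold change was -3.93 ± 0.18 (SE), with an adjusted p of 2.86e-09 by the quasi-likelihood test of edgeR, and an exact permutation test over the 8 hearts gave p = 0.0286 (two-sided), the smallest value that 4 against 4 hearts allow. The fitted level in *Rpl3l*-/- hearts was 6.58% of WT, with a 95% interval of 5.06% to 8.57%. The remaining signal rested on 303 to 676 counts per *Rpl3l*-/- library, and counts per transcript do not show where on the transcript these reads lie. A shorter annotated transcript of the gene that begins downstream of exon 4 fell by 3.55 ± 0.18 (SE, adjusted p = 4.57e-09, edgeR over all 15394 transcripts tested), but shares all its exons except the first with the longer one, so that reads from the 2 transcripts cannot be told apart there. Per kilobase of transcript, *Rpl3l* stood at 823 CPM in WT hearts, against a median of 1325 CPM per kilobase for the 45 other cytosolic ribosomal protein genes tested, of which 39 were above it. In *Rpl3l*-/- hearts it was at 54.1 CPM per kilobase, below all 45.

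**Figure D1:**
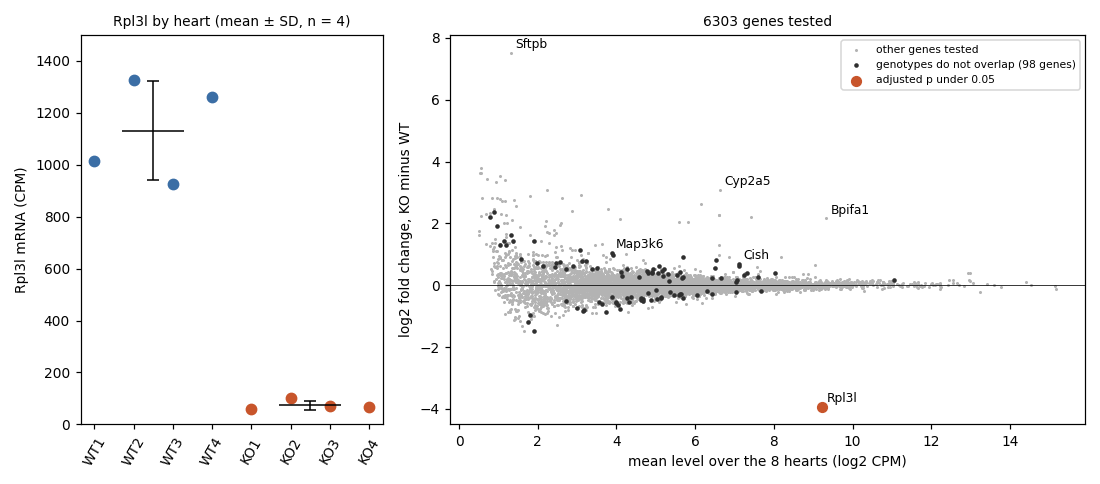
Left, CPM of *Rpl3l* in each of the 8 hearts, with the mean and SD of each genotype (n = 4). Right, log2 fold change (*Rpl3l*-/- minus WT) against the mean level over the 8 hearts (log2 CPM) for the 6303 genes tested, with the 98 genes whose genotypes do not overlap in black and the gene with an adjusted p under 0.05 in orange. *Rpl3l* at -3.93 stands alone below the other genes, and *Sftpb*, with counts in only 2 hearts, has the highest value.

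No other mRNA tested passed the threshold of this test. Of the 6303 genes, 1 passed an adjusted p of 0.05 (0.0159% of those tested), *Rpl3l* itself, and 0 passed in the upward direction. At an unadjusted p under 0.05 there were 140 genes (2.22%), with 90 higher (1.43%) and 50 lower (0.793%) in *Rpl3l*-/- hearts. All 4 *Rpl3l*-/- hearts lay above all 4 WT hearts for 58 genes (0.92%) and below them for 40 (0.635%), together 98 genes (1.55%). These shares over all genes tested are the background for the counts by class given below. DESeq2 called 2 genes, *Rpl3l* and *Cish*. The intervals bound the changes that could have been missed. The 95% interval of the log2 fold change lay within ±1 for 4946 genes (78.5%) and within ±0.5 for 2668 (42.3%), and among the 1395 genes with a mean count of at least 500 for 1379 (98.9%) and 1286 (92.2%). In that well-covered set the median SE was 0.13 and 95% of genes had a log2 fold change of at most 0.21 in either direction.

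*Cish*, on another chromosome than *Rpl3l*, had the smallest p after it and encodes a feedback inhibitor of cytokine signaling through STAT5. Its level was 134, 92.5, 113 and 84.3 CPM in WT1 to WT4 and 176, 174, 172 and 162 CPM in KO1 to KO4. The lowest *Rpl3l*-/- heart stood above the highest WT heart, with a log2 fold change of 0.70 ± 0.14 (SE), an unadjusted p of 0.000186 and an adjusted p of 0.587 in edgeR, against 0.00621 in DESeq2. Its adjusted p in edgeR was 0.142 or higher under every other setting and with each heart left out in turn. *Resf1*, which encodes a factor in silencing of retroelements, had 45.1, 26.8, 35.8 and 37 CPM in WT1 to WT4 and 89.6, 46, 66.6 and 68.5 CPM in KO1 to KO4. Its genotypes did not overlap either, although KO2 came within 1 CPM of WT1 (log2 fold change 0.91 ± 0.20, adjusted p = 0.82, edgeR). *Cebpb*, a transcription factor of inflammatory, metabolic and stress responses, was measured at 126, 115, 84.9 and 113 CPM in WT1 to WT4 and 175, 175, 183 and 139.7 CPM in KO1 to KO4. Its genotypes were separate as well, with KO4 the lowest of the *Rpl3l*-/- hearts (log2 fold change 0.62 ± 0.14, adjusted p = 0.82, edgeR).

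*Per1*, a repressor of the circadian clock that glucocorticoids also induce, had 91.6, 45.4, 66.8 and 64 CPM in WT1 to WT4 and 153, 97.3, 101 and 115 CPM in KO1 to KO4. KO1 was the highest of the 8, and the lowest *Rpl3l*-/- heart exceeded the highest WT heart by a narrow margin (0.81 ± 0.20, adjusted p = 0.999, edgeR). *Map3k6*, a kinase upstream of stress-activated MAP kinases, had low counts at 12.7, 8.14, 6.19 and 11.1 CPM in WT1 to WT4 and 18, 17.9, 22.8 and 20.7 CPM in KO1 to KO4. All *Rpl3l*-/- hearts were above all WT hearts (1.05 ± 0.26, adjusted p = 0.999, edgeR). The next genes with positive values were *Zfp970* (0.62 ± 0.17), *Dnaic1*, a subunit of ciliary dynein (1.15 ± 0.33), *Msrb1* (0.41 ± 0.12), *Gmfg*, an actin regulator of blood cells (0.99 ± 0.30) and *Ckmt1*, a mitochondrial creatine kinase (2.90 ± 0.87). Each of these 5 had an adjusted p of 0.999 (edgeR).

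*Msrb1*, a methionine sulfoxide reductase, is the gene nearest to the edited gene among the genes tested. It lies downstream of *Rpl3l* on the same strand (chr17:24736642-24742778, GRCm38), and 498 bases separate the 2 transcripts. Its level was 261, 221, 189 and 230.3 CPM in WT1 to WT4 and 279, 326, 279 and 313 CPM in KO1 to KO4. All *Rpl3l*-/- hearts were above all WT hearts, with an unadjusted p of 0.00411 (edgeR) and an adjusted p that did not pass. *Rps2*, a ribosomal protein gene and the nearest gene tested on the upstream side, had 0.13 ± 0.16 with genotypes that overlapped. The part of the edited locus in the level of *Msrb1* was not tested.

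On the negative side, no gene after *Rpl3l* had a p as small as these. *Zfp395* (-0.76 ± 0.26, unadjusted p = 0.00965) and *Iigp1*, an interferon-induced GTPase, led them. *Iigp1* had 68.4, 41.3, 89.8 and 63.2 CPM in WT1 to WT4 and 28.8, 44.5, 50.8 and 46.7 CPM in KO1 to KO4. WT2 lay inside the *Rpl3l*-/- range, so that the genotypes overlapped (-0.62 ± 0.22, unadjusted p = 0.0116, adjusted p = 0.999, edgeR). *Cldn5*, a tight junction protein of endothelium, had -0.53 ± 0.19, *Zfp961* -0.86 ± 0.30 and *Trim37*, a ubiquitin ligase whose genotypes did not overlap, -0.50 ± 0.18, each with an adjusted p of 0.999 (edgeR).

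No mRNA of the contractile apparatus passed the test. Of 30 genes listed for thick and thin filaments 16 had a line in the table, all 16 were tested, and 0 had an unadjusted p under 0.05, with a median log2 fold change of 0.011 (range -0.19 to 0.20) against 0.009 over all genes tested. Among them were *Myl2*, the ventricular regulatory light chain (-0.12 ± 0.15), *Tnnt2*, cardiac troponin T (-0.022 ± 0.14), and *Myl3*, the ventricular essential light chain (0.02 ± 0.15). *Mybpc3*, myosin-binding protein C, had the smallest p of the class at 0.212 (0.16 ± 0.12). The 95% interval lay within ±1 for 15 of the 16. Among 15 genes of the Z-disc and costamere the median was -0.019, 0 had an unadjusted p under 0.05, and all 15 intervals lay within ±1, including those of the intermediate filament protein *Des* (0.0034 ± 0.11) and the chaperone *Cryab* (0.0049 ± 0.13). *Tcap*, the cap of titin, ran from 2145 CPM in WT1 to 4615 CPM in KO2.

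Calcium cycling genes gave a median of -0.019 over 17 tested, with 0 under an unadjusted p of 0.05 and all 17 intervals within ±1. Among them *Pln*, the inhibitor of the sarcoplasmic calcium pump, had -0.051 ± 0.13, *Casq2*, the calcium buffer of the sarcoplasmic reticulum, 0.10 ± 0.14 and *Hrc*, a calcium-binding partner of it, -0.056 ± 0.12. *Camk2d*, the main calcium/calmodulin-dependent kinase of the heart, had the smallest p of the class (-0.35 ± 0.17, unadjusted p = 0.0567). Of 14 ion channel genes 1 had an unadjusted p under 0.05, *Hcn2*, a pacemaker channel subunit, and 5 had a positive value, with a class median of -0.15. *Hcn2* had 118, 109, 162 and 157 CPM in WT1 to WT4 and 178, 196, 181 and 166 CPM in KO1 to KO4. The lowest *Rpl3l*-/- heart was just above the highest WT heart (0.39 ± 0.14, adjusted p = 0.999, edgeR). *Gja1*, connexin 43, had -0.17 ± 0.16.

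The markers of cardiac stress and of the fetal gene program that were tested did not separate the genotypes. Of 38 genes listed 20 had a line and 16 were tested, so the class is covered only in part. Of these 16 genes 0 had an unadjusted p under 0.05, 8 had a positive value, and the median was -0.012. *Nppa*, atrial natriuretic peptide, was measured at 11485, 11534, 9036 and 9659.9 CPM in WT1 to WT4 and 8885, 7282, 9504 and 10392 CPM in KO1 to KO4. KO3 and KO4 lay within the WT range and KO1 and KO2 below it (-0.21 ± 0.14, adjusted p = 0.999, edgeR). *Nppb*, brain natriuretic peptide and a marker of wall stress, had 789, 569.5, 241 and 566 CPM in WT1 to WT4 and 485, 663, 540.5 and 478 CPM in KO1 to KO4. The WT hearts alone ran from the lowest to the highest value, and the log2 fold change was 0.0032 ± 0.24 with an adjusted p of 0.999 (edgeR). *Ccn2*, a matricellular protein induced by stretch and TGF-β, had the smallest p of the class (0.42 ± 0.20, unadjusted p = 0.0527), while *Xirp2* (-0.13 ± 0.15) and the small heat shock protein *Hspb1* (0.16 ± 0.15) had values close to their SE.

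**Figure D2:**
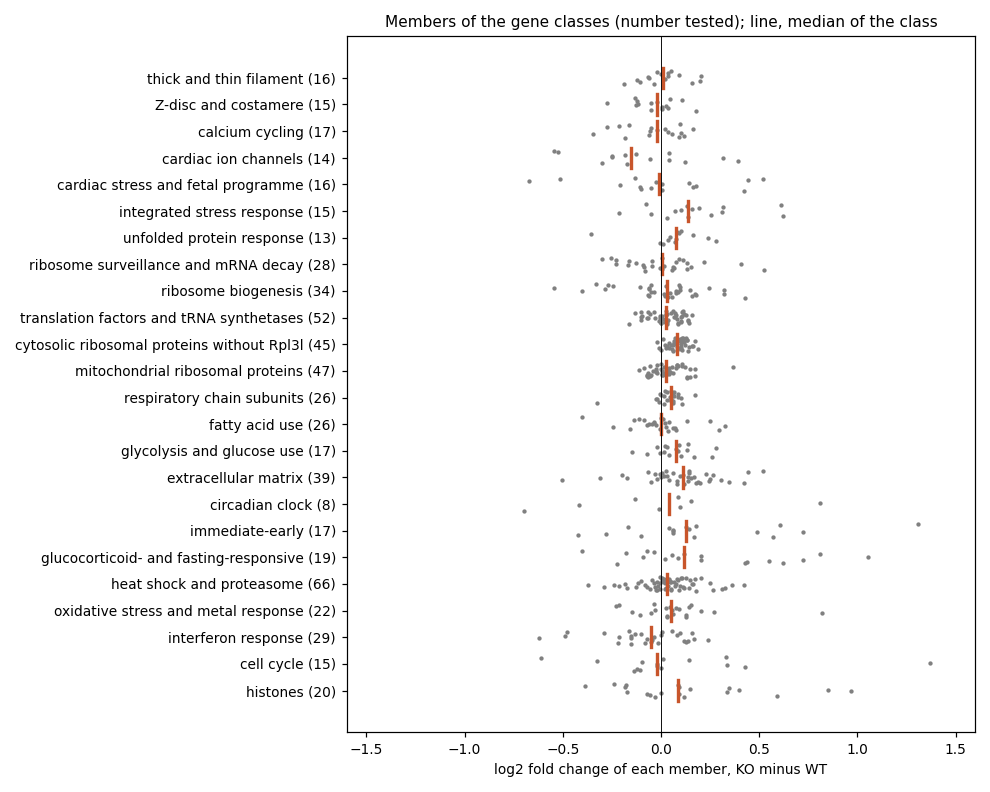
Log2 fold change (*Rpl3l*-/- minus WT, x axis) of every tested member of 24 gene classes, 1 point per gene, with the median of each class as an orange line and the number tested in parentheses. Class medians lie between -0.15 for ion channels and 0.14 for the integrated stress response.

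Stress responses that follow faulty translation were examined next. The integrated stress response, in which phosphorylated eIF2 raises ATF4 and its targets, had the highest median of the functional classes at 0.14, with 12 of 15 genes positive, 1 positive gene with an unadjusted p under 0.05 (*Cebpb*) and 0 called. *Atf4* itself had 305, 280.4, 257 and 304 CPM in WT1 to WT4 and 302, 383, 330.2 and 248 CPM in KO1 to KO4. The genotypes overlapped, with the lowest and the highest value both in *Rpl3l*-/- hearts (0.14 ± 0.13, adjusted p = 0.999, edgeR). Of its targets, *Gars*, glycyl-tRNA synthetase, had 0.16 ± 0.11 and *Vldlr*, a lipoprotein receptor, -0.074 ± 0.14. When counts were thinned to the depth of the smallest library, the class median was 0.037. The unfolded protein response of the endoplasmic reticulum had a median of 0.076 over 13 genes, 11 of them positive, with 0 at an unadjusted p under 0.05 and all 13 intervals within ±1. Its main chaperone *Hspa5* had 0.076 ± 0.16, the disulfide isomerase *Pdia3* 0.047 ± 0.17 and *Herpud1*, a component of degradation from the endoplasmic reticulum, 0.036 ± 0.12.

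Genes for the surveillance of stalled ribosomes and mRNA decay had a median of 0.006 over 28 tested, with 2 higher and 1 lower in *Rpl3l*-/- hearts at an unadjusted p under 0.05 and 0 called. *Ascc2*, a subunit of the complex that splits collided ribosomes, was at 15.5, 24.4, 29.6 and 28.9 CPM in WT1 to WT4 and 32.1, 34.7, 37.3 and 41.1 CPM in KO1 to KO4. All *Rpl3l*-/- hearts were above all WT hearts, WT1 being the lowest of the 8 (0.52 ± 0.19, adjusted p = 0.999, edgeR). *Usp10*, a deubiquitylase of the small ribosomal subunit, had 98.7, 90.7, 99.9 and 89.6 CPM in WT1 to WT4 and 83, 67.2, 79.9 and 77.9 CPM in KO1 to KO4. All *Rpl3l*-/- hearts were below all WT hearts (-0.30 ± 0.13, adjusted p = 0.999, edgeR). *Otud1*, a deubiquitylase, had 0.41 ± 0.17 (unadjusted p = 0.0321). *Rack1*, a ribosomal scaffold that senses collisions (0.13 ± 0.13), and *Edf1*, which binds collided ribosomes (-0.0048 ± 0.12), had fold changes near or below their SE. Genes of ribosome biogenesis had a median of 0.031 over 34 tested. *Rrp1b*, a nucleolar protein, was the only one with an unadjusted edgeR p under 0.05 (-0.54 ± 0.23, adjusted p = 0.999), and *Mybbp1a*, a nucleolar regulator of rRNA synthesis, had -0.068 ± 0.12.

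The translation apparatus itself showed small values, mostly positive, that did not pass the test. Of 52 translation factors and aminoacyl-tRNA synthetases 36 were positive with a median of 0.027, 0 had an unadjusted p under 0.05, and all 52 intervals lay within ±1. Elongation factor *Eef2* had 0.003 ± 0.14 and the start codon selection factor *Eif1* 0.022 ± 0.12. Of the 45 cytosolic ribosomal protein genes other than *Rpl3l*, 42 were positive, with a median of 0.084 and a range of -0.019 to 0.19, 0 had an unadjusted p under 0.05, and 0 had genotypes that did not overlap. Their summed level was 51528, 61593, 41479.6 and 54743 CPM in WT1 to WT4 and 50462, 70326, 52316 and 49723 CPM in KO1 to KO4. KO2 alone was far above the other *Rpl3l*-/- hearts, which lay among the WT hearts, and WT3 was the lowest of all. KO2 and WT3 also had the highest and the lowest CPM summed over all genes tested (1090580 and 923886). *Rplp0*, of the ribosomal stalk, followed the sum with 2852, 3428, 2602 and 3182 CPM in WT1 to WT4 and 2640.4, 4296, 2923 and 2876 CPM in KO1 to KO4. The genotypes overlapped (0.078 ± 0.15, adjusted p = 0.999, edgeR). With 1 heart left out, the median of the class with *Rpl3l* ran from -0.054 without KO2 and -0.018 without WT3 to 0.18 without WT2. Mitochondrial ribosomal protein genes had a median of 0.023 over 47, with 0 at an unadjusted p under 0.05.

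The metabolic mRNAs tested had 0 members at an unadjusted p under 0.05. The 26 nuclear-encoded respiratory chain subunits tested, a part of the full set, had a median of 0.05, with 21 positive and all 26 intervals within ±1. They included *Atp5b*, the catalytic subunit of ATP synthase (0.11 ± 0.12), and *Cox4i1* of cytochrome c oxidase (-0.011 ± 0.15). For 26 genes of fatty acid use the median was -0.0016, with *Fabp3*, the fatty acid carrier of muscle, at -0.06 ± 0.13, lipoprotein lipase *Lpl* at -0.035 ± 0.15 and the uncoupling protein *Ucp3* at the smallest p (-0.40 ± 0.29, unadjusted p = 0.181). The 17 genes of glycolysis and glucose use had a median of 0.079, with the muscle enolase *Eno3* at 0.17 ± 0.13, *Pkm* at 0.03 ± 0.12 and *Eno1*, the ubiquitous enolase, at 0.26 ± 0.14.

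Extracellular matrix genes had a median of 0.11, with 30 of 39 positive, but 0 had an unadjusted p under 0.05 and their level followed single hearts. The summed level was 7398, 8171, 7208 and 7510.2 CPM in WT1 to WT4 and 8969.5, 6408, 9134 and 7652 CPM in KO1 to KO4. KO1 and KO3 held the highest sums and KO2 the lowest, so that the *Rpl3l*-/- hearts enclosed all 4 WT hearts. The collagens *Col3a1* (0.084 ± 0.18) and *Col1a2* (0.24 ± 0.21) and the proteoglycan *Dcn* (-0.019 ± 0.13) showed fold changes close to or below their SE. The class median was 0.02 without KO3 and 0.23 without KO2.

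The class with the most genes at an unadjusted p under 0.05 was that of glucocorticoid- and fasting-responsive genes. It had 5 of 19 such genes, all positive (*Cebpb*, *Cebpd*, *Errfi1*, *Map3k6* and *Per1*), 4 of them with genotypes that did not overlap, against 1.43% and 0.92% of all genes tested, and 0 called by the adjusted p. The class was assembled with results of these data known, so this count is a description. *Cebpd*, a partner of *Cebpb*, had 47.2, 29.7, 38.5 and 49.3 CPM in WT1 to WT4 and 58.5, 52.2, 50.2 and 64.4 CPM in KO1 to KO4. The genotypes were separated by less than 1 CPM (0.44 ± 0.17, unadjusted p = 0.0208, adjusted p = 0.999, edgeR). *Errfi1*, a feedback inhibitor of the EGF receptor, had 0.55 ± 0.20. Other members of the same class did not share the pattern. *Trim63*, the muscle ubiquitin ligase MuRF1, had -0.035 ± 0.12, the metallothionein *Mt1* 0.20 ± 0.20 and *Mt2* 0.059 ± 0.39. The class median was 0.12, and it was -0.023 without WT2 and 0.28 without WT3. Without the 4 hearts in which markers of airway tissue summed to 100 CPM or more (WT2, WT4, KO1 and KO3) it was -0.033, so that its sign depended on which hearts were included. *Mt2* was set by 1 heart, with 69.1, 83.2, 370.1 and 109 CPM in WT1 to WT4 and 165, 230.4, 153 and 112 CPM in KO1 to KO4. WT3 was more than 3-fold above the other WT hearts, and above all *Rpl3l*-/- hearts.

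Immediate-early genes respond within minutes to activity, stretch or handling of the tissue. Of 17 tested, 13 were positive with a median of 0.13, and 2 had an unadjusted p under 0.05, *Gadd45g* (0.49 ± 0.21) and *Nr4a3* (1.31 ± 0.57). *Nr4a1*, an orphan nuclear receptor of this class, had 93, 257, 64.6 and 194 CPM in WT1 to WT4 and 135, 304, 269.5 and 219 CPM in KO1 to KO4. Hearts of both genotypes spread over more than 2-fold (0.61 ± 0.33, adjusted p = 0.999, edgeR). *Egr1* was likewise uneven, with 35.9, 169, 51.3 and 31.5 CPM in WT1 to WT4 and 24.8, 83.9, 79.2 and 20.2 CPM in KO1 to KO4. WT2 was more than 3-fold above the other WT hearts (-0.42 ± 0.50). Of 8 circadian clock genes only *Per1* had an unadjusted p under 0.05, and the clock output factor *Dbp* had 211, 272, 442 and 154 CPM in WT1 to WT4 and 261, 410.2, 323 and 157 CPM in KO1 to KO4. It varied more than 2-fold within each genotype (0.097 ± 0.29), and the time of day at which hearts were taken is not given in the sources used here.

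Among 66 chaperone and proteasome genes 1 had an unadjusted p under 0.05, *Hsf2*, a heat shock transcription factor (0.42 ± 0.17). The constitutive chaperone *Hspa8* had 0.16 ± 0.14 and the class median was 0.032. Among 22 genes of oxidative stress and metal response, *Gsta4*, a glutathione transferase for lipid peroxidation products, had an unadjusted p of 0.0284 (0.27 ± 0.11), and the others did not reach 0.05, including ferritin heavy chain *Fth1* (0.13 ± 0.15) and mitochondrial superoxide dismutase *Sod2* (0.049 ± 0.12). Interferon response genes had a median of -0.053, with 11 of 29 positive and 2 lower at an unadjusted p under 0.05, *Iigp1* and *Tap1*. *Tap1*, which carries peptides to MHC class I, had 29.6, 30.2, 43.3 and 34.1 CPM in WT1 to WT4 and 28.4, 29.2, 22.3 and 18.9 CPM in KO1 to KO4. All *Rpl3l*-/- hearts were below all WT hearts by a margin under 1 CPM (-0.48 ± 0.20, adjusted p = 0.999, edgeR). *H2-D1* (-0.053 ± 0.15) and *B2m* (-0.15 ± 0.14), chains of MHC class I, had values close to or below their SE. Cell cycle genes (15 tested, median -0.021) and histone genes (20 tested, median 0.089) had 0 members at an unadjusted p under 0.05, and poly(A) selection captures replication-dependent histone mRNAs poorly.

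Markers of cell types were used to see whether the hearts differed in what they held, although in bulk tissue fewer cells of a type and less RNA per cell cannot be told apart. The cardiomyocyte markers were high in every library, as the label heart requires, with a summed level of 108819 to 142584 CPM over 7 genes, and a median log2 fold change of -0.022. All 10 atrial markers tested had a negative value, with a median of -0.20, but 0 had an unadjusted p under 0.05. The summed atrial level was 16512, 16929.9, 12876 and 14509.8 CPM in WT1 to WT4 and 13554, 10912, 14229 and 15238 CPM in KO1 to KO4. KO2 was the lowest heart and KO1, KO3 and KO4 lay within the WT range. The median of the class stayed negative with any 1 heart left out, from -0.29 without KO4 to -0.086 without KO2. *Sln*, sarcolipin, had the smallest p of them (-0.27 ± 0.14, unadjusted p = 0.0619), and *Myl4*, the atrial light chain, had -0.06 ± 0.15.

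Fibroblast markers had a median of 0.084 over 11 genes, and their summed levels were 4935 ± 379 CPM in WT and 5344 ± 702 CPM in *Rpl3l*-/- hearts (SD, n = 4 each). Endothelial markers summed to 1488 ± 42.6 CPM in WT and 1489 ± 139 CPM in *Rpl3l*-/- hearts (SD, n = 4 each), with *Cdh5*, VE-cadherin, at -0.038 ± 0.16 and *Eng*, endoglin, at 0.082 ± 0.13, and *Cldn5*, given above, was the only one of 10 with an unadjusted p under 0.05 (class median -0.05). Of 6 macrophage markers all had positive values with a median of 0.25, and *Cd163*, a scavenger receptor of resident macrophages, had an unadjusted p of 0.0451 (0.52 ± 0.24), whereas *Csf1r*, the receptor of their growth factor, had 0.028 ± 0.15. The macrophage median was 0.073 without WT4 and 0.32 without WT3, and it was -0.19 in the 4 hearts with few airway counts (WT1, WT3, KO2 and KO4), so that its direction depended on the other 4. For smooth muscle and pericytes (8 genes) the median was 0.033, and for the lymphocyte list, which held MHC class II genes, *Cd74* and 1 B cell gene, it was -0.13 over 4 genes. Mesothelial (5 genes, median 0.029) and Schwann cell and neuron markers (12 genes, 0.047) had 0 members at an unadjusted p under 0.05. The conduction system list had a median of 0.04 over 5 genes, the platelet list 0.31 over 2, the brown fat list -0.0049 over 8, the cartilage and valve list 0.34 over 8 with *Chad* (1.03 ± 0.44) and *Acan* (2.74 ± 1.20) at an unadjusted p under 0.05, and the skeletal muscle list -0.35 over 8, of which *Myh4*, a fast myosin at 8.48 to 34.5 CPM, was also under 0.05 (-0.86 ± 0.36). The cartilage and valve median was -0.14 without KO3 and 0.75 without WT2. Of all 42 class medians 28 took both signs when each heart was left out in turn, so that the sign of those medians rested on single hearts. Of the thymus list only *Ccl25* was tested, at 0 to 4.04 CPM.

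Levels of red cell mRNAs differed from heart to heart. Red cell markers summed to 10509, 15456, 13358 and 17182 CPM in WT1 to WT4 and 26124, 19209, 12062 and 16882 CPM in KO1 to KO4. KO1 was the highest and WT1 the lowest, with KO3 below 3 of the 4 WT hearts, and the class median was 0.33 over 6 genes with 0 at an unadjusted p under 0.05, or 0.15 without KO1. The α-globin genes *Hba-a1* (0.40 ± 0.20) and *Hba-a2* (0.40 ± 0.20) are near-identical copies that can share reads, so their split is uncertain. *Alas2*, the first enzyme of heme synthesis in red cells, gave 0.39 ± 0.20. *Pf4*, a platelet chemokine, had 0.33 ± 0.17.

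**Figure D3:**
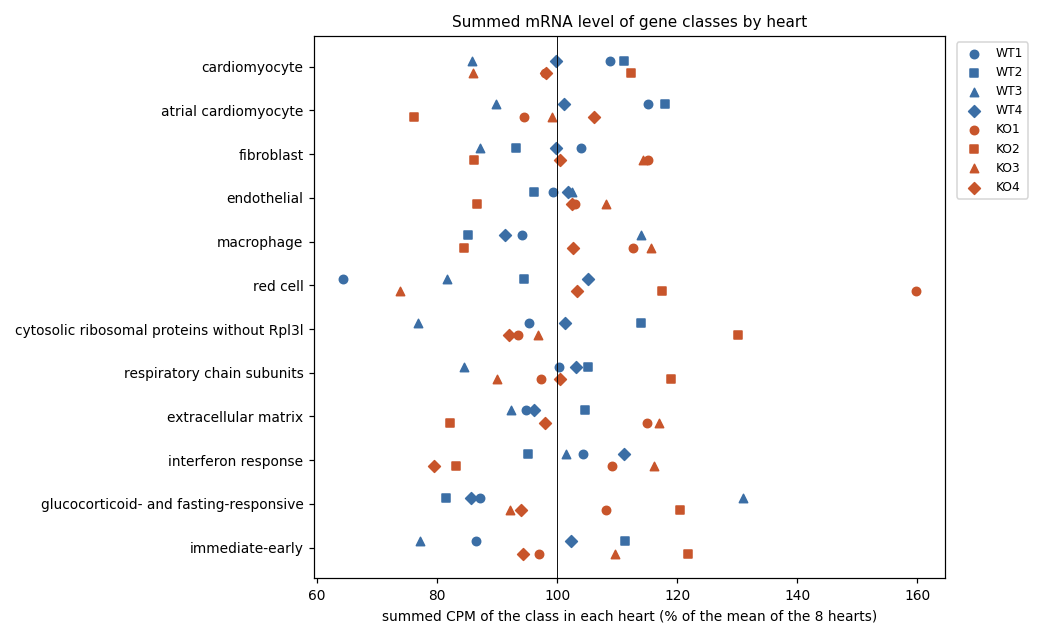
Summed CPM of 12 gene classes in each heart, as a percentage of the mean over the 8 hearts (x axis), with WT hearts in blue and *Rpl3l*-/- hearts in orange and a symbol for each replicate number. Red cell mRNA runs from 64.3% in WT1 to 159.8% in KO1, cytosolic ribosomal protein mRNA from 76.8% in WT3 to 130.2% in KO2, and in each class drawn the genotypes overlap.

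Hearts of the same genotype varied little in most of the well-covered mRNAs. Over the 1395 genes with a mean count of at least 500, the SD of log2 CPM within a genotype, pooled over both, had a median of 0.179 (quartiles 0.136 and 0.228), a factor of 1.13 per SD. The median SD was 0.178 among WT and 0.167 among *Rpl3l*-/- hearts, and the SD was larger in *Rpl3l*-/- hearts for 631 of the 1395 genes (45.2%). This share depended on single hearts. It was 29.4% without KO2, when the median among *Rpl3l*-/- hearts was 0.114, and 60.1% without WT3, when the median among WT hearts was 0.145. The median absolute deviation of a heart from the mean of its genotype was largest for KO2 (0.16) and WT3 (0.151) and smallest for WT4 (0.0874).

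Among the 10 steadiest of these mRNAs was *Selenof*, a selenoprotein of the endoplasmic reticulum, which stayed between 181 and 203 CPM in all 8 hearts, with an SD of 0.0501. *Ktn1*, kinectin, ran from 592 to 681 CPM and *Eif4g1*, the scaffold of cap-dependent initiation, from 1001 to 1198 CPM. *Utp3*, a nucleolar protein of ribosome biogenesis, was so even within each genotype that the ranges did not overlap although they differed by only 0.092 ± 0.11 on the log2 scale, with 129, 129, 126 and 129.5 CPM in WT1 to WT4 and 143, 142, 131 and 130.4 CPM in KO1 to KO4. By the 2 measures used here, separate ranges and the edgeR test, *Utp3* met the first and not the second (unadjusted p = 0.429).

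At the other end, 24 genes had an SD of at least 0.5 and 12 of at least 1. The 5 most variable were 4 members of the airway and lung list and *Cyp2a5*, a cytochrome P450. *Bpifa1*, a secreted protein of the upper airways, had 0.705, 738, 3.98 and 204 CPM in WT1 to WT4 and 1731, 0, 2494 and 0.449 CPM in KO1 to KO4. It was high in WT2, WT4, KO1 and KO3 and almost absent from WT1, WT3, KO2 and KO4, which splits the hearts across both genotypes. *Cyp2f2*, a cytochrome P450 of club cells, had 2.11, 198, 3.1 and 46.8 CPM in WT1 to WT4 and 493, 0.622, 634 and 1.57 CPM in KO1 to KO4. *Cyp2a5*, *Scgb3a2* and *Ltf* divided the hearts in the same way, with SDs of 4.75, 4.63 and 4.29. The 13 tested airway and lung markers summed to 9.16, 1352, 20.3 and 345 CPM in WT1 to WT4 and 3289, 5.75, 4432 and 7.63 CPM in KO1 to KO4. All 13 had a positive log2 fold change (median 2.16), and 1 had an unadjusted p under 0.05, *Sftpb*, a surfactant protein of alveolar cells found at 18 CPM in KO1 and 1.86 CPM in KO3 and at 0 in the other 6. The neutrophil list shares *Ltf* with the airway list, and its 4 tested genes summed to 10.9 to 374 CPM with a median log2 fold change of 0.17. The part of airway or fat tissue in the values of other genes was not tested.

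Genes of adipocytes formed the next group. *Adipoq*, the adipocyte hormone adiponectin, had 62.7, 77.4, 14.6 and 103 CPM in WT1 to WT4 and 226, 0.933, 272 and 18.6 CPM in KO1 to KO4. *Cfd*, adipsin, had 289.6, 551, 123 and 693 CPM in WT1 to WT4 and 942, 21, 1520.4 and 121 CPM in KO1 to KO4. KO1 and KO3 were the highest and KO2 the lowest by far for both, and the WT hearts lay between. *Car3*, *Pck1* and *Cyp2e1*, all abundant in fat, had SDs of 2.35, 2.32 and 1.99 again with KO1 and KO3 highest and KO2 lowest. *Cidea*, a lipid droplet protein of brown fat, ran from 107 CPM in WT3 to 342 CPM in KO3. As for the airway genes, WT2, WT4, KO1 and KO3 were above every other heart for *Adipoq*, *Cfd*, *Car3*, *Cyp2e1* and *Cidea*. This did not hold for *Pck1*, for which WT1 was above WT2. Among the 11 tested white fat markers the median log2 fold change was 0.30 and 0 had an unadjusted p under 0.05. This median was 0.0083 without KO3 and 0.64 without WT4, and it was negative without the 4 hearts with most airway counts (-0.41) and with the replicate block (-0.17).

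Without the 4 hearts in which airway markers summed to 100 CPM or more, a set chosen after the data were seen, 2 hearts of each genotype remained (WT1, WT3, KO2 and KO4). *Rpl3l* was called there too (-3.54), together with *Nr4a1* (1.73, higher) and with *Cyp2e1* (-1.77) and *Cfd* (-1.54), both lower in the 2 *Rpl3l*-/- hearts, of 5995 genes tested. The sign of *Cyp2e1* and *Cfd* was positive over all 8 hearts, where KO1 and KO3 held the highest levels. Both genes divided the 8 hearts as the airway genes did, so the hearts kept were not chosen independently of their levels. *Nr4a1* was not called over all 8 hearts (0.61).

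**Figure D4:**
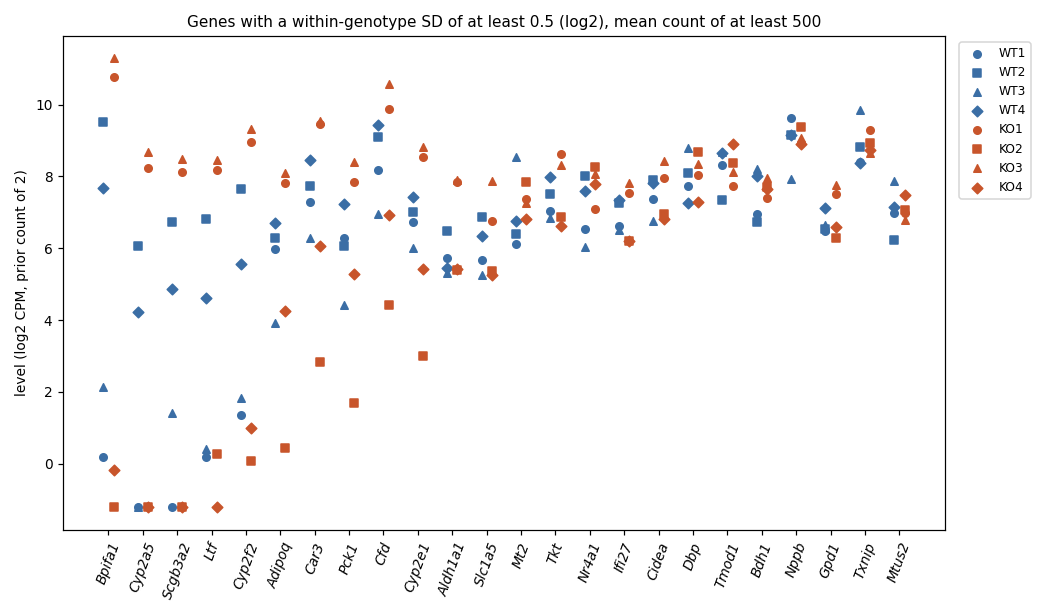
Level (log2 CPM with a prior count of 2, y axis) in each of the 8 hearts for the 24 genes with a within-genotype SD of at least 0.5 among 1395 genes, ordered by that SD from the left, with WT hearts in blue and *Rpl3l*-/- hearts in orange. Symbols at the bottom are hearts with 0 counts, and for the 5 genes at the left WT2, WT4, KO1 and KO3 lie far above the other 4 hearts.

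Outside these groups, *Tkt*, *Slc1a5* and *Ifi27* also stood higher in WT2, WT4, KO1 and KO3 than in each of the others. The remaining genes with an SD of at least 0.5 did not divide the hearts this way, among them *Dbp* and *Nr4a1*. In a principal component analysis of the 1395 genes, the first component held 68.5% of the variance. Its largest loadings were those of *Bpifa1* (0.47), *Cyp2a5* (0.40), *Scgb3a2* (0.38), *Ltf* (0.35) and *Cyp2f2* (0.34), followed by the fat gene *Adipoq* (0.19). The share of variance is thus mainly that of a few airway and fat genes. On it WT2, WT4, KO1 and KO3 were positive and WT1, WT3, KO2 and KO4 negative. WT3 stood apart by *Mt2* (2.11 on the log2 scale from the mean of the other WT hearts), *Txnip*, an inhibitor of thioredoxin that responds to glucose (1.30), and *Dbp* (1.09). WT1 stood apart by *Nppb* (0.89) and the cochaperone *Dnaja1* (0.68), and WT4 by low *Dbp* (-0.93) and *Retreg1*, a receptor for autophagy of the endoplasmic reticulum (-0.79). *Tmod1*, which caps thin filaments, had 317, 161, 408 and 402 CPM in WT1 to WT4 and 211, 331, 277 and 477 CPM in KO1 to KO4. It was low in WT2 and KO1 and high in KO4, and its fold change between genotypes was 0.0016 ± 0.26. *Bdh1*, an enzyme of ketone body use, was at 123 CPM in WT1 and 105 CPM in WT2 and between 168 and 296 CPM in the other hearts. KO4 stood apart by *Prrc2b*, a gene for a proline-rich protein (0.83), and *Clasp1*, a microtubule regulator (0.81), and KO3 by low *Hba-a1* (-0.76) and *Alas2* (-0.69). KO2 had high *Mt1* (0.83), and KO1 low *Nr4a1* (-0.95) and low *Rps21* (-0.50), each against the mean of the other *Rpl3l*-/- hearts.

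Hearts differed in the level of short against long transcripts. Each gene was taken as its deviation from the mean of its genotype, and the median over 168 genes with transcripts shorter than 1000 nt (cytosolic ribosomal protein genes left out) was set against that over 277 genes of 4000 nt or more. The difference on the log2 scale was 0.069, 0.18, -0.30 and 0.053 in WT1 to WT4 and -0.11, 0.34, -0.072 and -0.14 in KO1 to KO4. KO2 was the heart with the highest short and WT3 that with the lowest short transcripts, and these same hearts had the highest and the lowest summed ribosomal protein mRNA. Ribosomal protein mRNAs are short, and the part of transcript length in their sum was not tested, nor is the integrity of the RNA of each heart given in the sources used here.

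**Figure D5:**
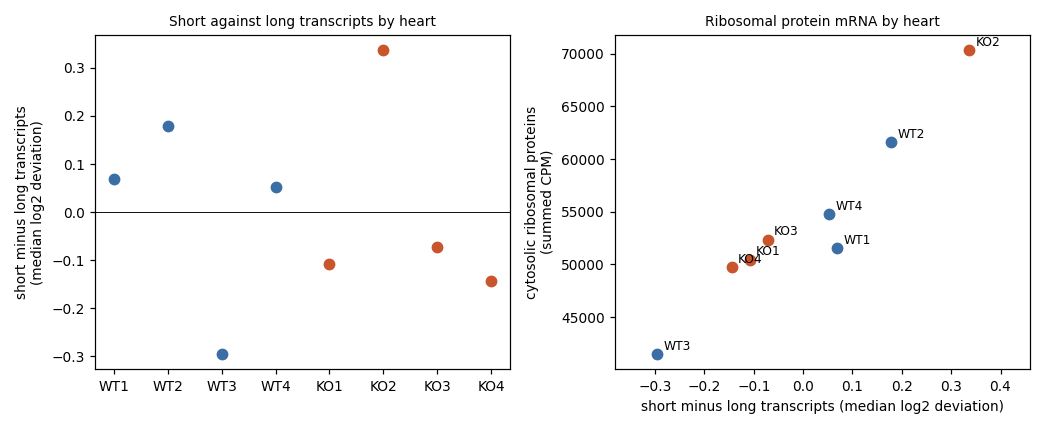
Left, median log2 deviation of short (under 1000 nt, 168 genes) minus long transcripts (4000 nt or more, 277 genes) from the mean of the genotype, for each heart. Right, summed CPM of the 45 cytosolic ribosomal protein genes other than *Rpl3l* (y axis) against the same difference (x axis), with WT hearts in blue and *Rpl3l*-/- hearts in orange, where WT3 is lowest and KO2 highest on both axes.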

How the data were processed

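mRNA was measured in 8 hearts, 4 per genotype, as single poly(A)-selected directional libraries sequenced on an Illumina NovaSeq instrument. The authors deposited raw counts per transcript in 1 table of the whole study, and the submitters' processing notes name cutadapt, STAR and featureCounts with the builds GRCm38.p6 and mm10. How RNA-seq reads were counted, and whether strand was used, is not given in the sources used here. Each transcript had 2 identical lines, of which 1 was kept. Of 23877 transcripts 23662 were matched to GENCODE M21. The other 42 columns of per-sample values were not used.

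Genes with a mean count of at least 10 entered edgeR (version 4.0.16, under R 4.3.3), whose quasi-likelihood F-test compared the genotypes over the 8 libraries, with genotype as the only term, with TMM scaling and Benjamini-Hochberg adjustment over 6303 genes. CPM is relative to the counts of the genes tested, multiplied by the TMM factor of the library. This factor was lowest in KO2 (0.917) and highest in WT3 (1.08), so CPM over all genes tested did not sum to the same total in each heart. For SDs among hearts, log2 CPM with a prior count of 2 was used for 1395 genes with a mean count of at least 500. Total counts were 3594696 to 22425296 per library, which limits the precision of low genes. DESeq2 1.42.0, other filters, scaling, thinning, a replicate block and leaving out hearts were tried as alternatives, and scripts were tested on simulated data. The labels do not say that the hearts of a genotype came from separate litters, so p-values measure the spread between these hearts.

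The classes, members and named genes were chosen with earlier results of these data known. Named genes were those past an adjusted p of 0.05, the 10 smallest p values in each direction, in each class up to 4 members with the highest mean count, the member with the smallest p and any with p under 0.05, the 10 most and 10 least variable genes, and for each heart the 3 genes furthest above and below the other hearts of its genotype.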

Additional observations from a re-analysis of the deposited data

Results flagged for a closer look

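A heart stood apart from the other 3 of its genotype (gap to the nearest heart over the range of the 4 hearts above Dixon's 95% critical value) in 27 of 348 groups of 4 hearts examined. Chance flags about 1 in 20 groups that are independent and not chosen by their values, but these groups included genes named because 1 heart lay far from the others and class sums beside their own members, so that this rate does not apply to the count. KO2 accounted for 14 of the 27, in 12 of them as the highest of the *Rpl3l*-/- hearts. Its summed level was high for genes of ribosome surveillance and mRNA decay (4358 CPM), cytosolic ribosomal proteins with *Rpl3l* (70426 CPM), mitochondrial ribosomal proteins (12164 CPM), oxidative stress and metal response (23537 CPM) and the brown fat list (23553 CPM), of which the last includes *Fabp3*. Summed over all genes tested, TMM-scaled CPM was itself highest in KO2 (1090580, against 1006600, 946097 and 994221 in KO1, KO3 and KO4). The class sums were not divided by that total, so part of a high sum in KO2 can come from the scaling. Single genes high in KO2 were *Tcap* (4615 CPM), *Rack1* (1587 CPM), *Eif1* (2848 CPM), *Rplp0* (4296 CPM), *Rps2* (2736 CPM), *Fabp3* (17181 CPM) and *Fth1* (11133 CPM). KO2 was the lowest of its genotype for *Myl4* (2492 CPM) and *Csf1r* (123 CPM).

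WT3 had the highest WT sum of glucocorticoid- and fasting-responsive genes (3276 CPM) and the highest WT level of *Mt2* (370.1 CPM) and of the linker histone *H1f0* (162 CPM). WT2 was the highest WT heart for *Col1a2* (492 CPM), *Egr1* (169 CPM) and *Ckmt1* (2.91 CPM), WT1 for *Zfp395* (25.4 CPM) and WT4 for *Selenof* (203 CPM) and the muscle creatine kinase *Ckm* (9617 CPM). Among *Rpl3l*-/- hearts, KO4 was lowest for *Cebpb* (139.7 CPM) and highest for *Prrc2b* (198 CPM), KO3 was lowest for *Des* (3639.97 CPM) and KO1 highest for *Sftpb* (18.0 CPM).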

How the results depend on the processing

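*Rpl3l* was lower in *Rpl3l*-/- hearts and past the threshold under every alternative run, with a log2 fold change of -4.10 to -3.84 when 1 heart was left out. With 1 heart left out, 1 gene was lower and 0 were higher each time. DESeq2 called 1 gene higher (*Cish*), and testing all transcripts gave 2 lower, both of *Rpl3l*. Same-numbered hearts deviated in opposite directions (r = -0.58, -0.46, -0.57 and -0.64). Airway and fat genes varied most among the genes used, so these values do not decide whether the numbers pair the hearts. With the replicate block *Rpl3l* was at -3.93 and 1 gene was called. Without the 4 hearts with airway counts, chosen after seeing the data, 1 gene was higher and 3 lower. Of named genes, *Col1a2* (-0.23), *Adipoq* (-2.003), *Car3* (-1.68), *Pck1* (-1.27), *Cfd* (-1.54) and *Cyp2e1* (-1.77) then turned from positive to negative. Class medians then moved to 0.0440 (ribosome surveillance), 0.34 (cytosolic ribosomal proteins), 0.19 (mitochondrial ribosomal proteins), 0.30 (respiratory chain), -0.12 (extracellular matrix), 0.30 (immediate-early), -0.0196 (oxidative stress), -0.32 (interferon), -0.22 (fibroblast), -0.19 (macrophage), -0.41 (lymphocyte) and -0.39 (Schwann cell and neuron). Other moved medians were the integrated stress response after thinning (0.0366), neutrophil with a mean count of at least 50 (2.27), and cartilage and valve with a total of at least 10 counts (1.03). Leaving out 1 heart gave medians of -0.0408 to 0.0408 for ribosome surveillance, -0.0419 to 0.0757 for ribosome biogenesis, -0.0814 to 0.20 for the circadian clock, -0.0696 to 0.0855 for endothelial, 0.0726 to 0.32 for macrophage and 0.0212 to 0.97 for platelet markers. The median SD among hearts ran from 0.145 to 0.191 for WT and 0.114 to 0.176 for *Rpl3l*-/- hearts, and with a mean count of at least 50 it was 0.243 for WT, 0.207 for *Rpl3l*-/- and 0.241 pooled. The causes of these shifts were not tested. WT1, WT2 and WT3 were the shallowest, so depth and genotype cannot be fully told apart, and low genes are imprecise.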
